A study of Xenopus tropicalis x Xenopus laevis and Xenopus laevis and Xenopus tropicalis with 8 samples.

Results

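The transcripts described here are those of *X. laevis*, the species that supplied the egg, compared between le × ts hybrid embryos and *X. laevis* embryos at stage 9. For le × ts hybrids *X. laevis* eggs were fertilized by *X. tropicalis* sperm, and for *X. laevis* embryos both gametes were of *X. laevis*, so that the groups differ by design in the paternal genome. Rows of the deposited table that belong to *X. laevis* were kept where 2 or more of the 4 libraries compared reached a TPM of 1. TPM is the relative abundance of a transcript, corrected for its length and scaled to the same total in each library. This left 17044 of 20611 *X. laevis* transcripts, in a table of 34647 transcripts of both species, and 3567 were left out as too low. Each group had 2 libraries of polyadenylated RNA from whole embryos, collected 9 h post-fertilization and numbered 1 and 3 in the labels. The series also holds 2 libraries each of the reciprocal te × ls hybrids (*X. tropicalis* eggs, *X. laevis* sperm) and of *X. tropicalis* embryos. Both are used here to show which *X. laevis* transcripts the sperm genome gave by this stage. *X. tropicalis* embryos also give the level of some *X. tropicalis* transcripts in their own species. Embryos of the te × ls cross die as zygotic transcription starts, which limits them as a reference. The labels give no treatment, sex or strain, and do not say how many embryos were pooled.

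A frog egg carries a large store of maternal RNA, and the embryo divides on this store until the midblastula transition, when zygotic genome activation begins. Stage 9 lies close to that switch, so most RNA is still maternal and the first zygotic genes are just rising. The earliest of these are mainly patterning genes, such as the Nodal ligands and homeobox factors induced by the maternal T-box factor VegT, the organizer genes induced by maternal Wnt signalling, and the ventral Vent factors. *X. laevis* is an allotetraploid whose L and S subgenomes often both keep a copy of a gene, so that a symbol can have several transcripts in the database, which does not say which copy each one is. A read counted only if it matched a single transcript perfectly, so for close copies (the Bix, Hes, Nodal, Vent and zinc finger families) the split between transcripts is uncertain, and reads from alleles that differ from the database were lost.

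The libraries resembled each other more by number than by group. Over the tested transcripts, Pearson's r of log2(TPM + 1) between groups was 0.993 within number 1 and 0.969 within number 3, whereas between numbers it was 0.939 in *X. laevis* and 0.908 in le × ts. The deposited TPM keep no read totals, but the smallest nonzero values gave le × ts 3 0.439 times the reads of *X. laevis* 1, against 0.973 times for le × ts 1 and 1.13 times for *X. laevis* 3. The library le × ts 3 was therefore the shallowest of the 4, and its low values carry the largest counting error. *X. laevis* transcripts held between 99.0% and 99.7% of all TPM in the 4 libraries. Markers of later tissues passed the filter for 5 of 17 transcripts and markers of testis and sperm for 9 of 15, while germ plasm passed for 49 of 50 and egg and oocyte genes for 58 of 60. Whole embryos hold many cell types, and fewer cells of a type and less RNA per cell cannot be told apart here.

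Differences are given on the scale log2(TPM + 1), le × ts minus *X. laevis*, within number 1 and within number 3. This scale understates changes of low transcripts. The labels do not say what libraries of the same number share, so these differences are descriptions without a test. A transcript was called lower in both numbers when both differences were under -1, higher when both were over 1, and level when both lay between -0.25 and 0.25. By this rule 54 transcripts were lower in both numbers, 0.317% of the 17044, and 3 were higher, 0.0176%. A further 5351 were level in both, 31.4%. The median difference was 0.05 in number 1 and -0.02 in number 3. TPM sum to the same total in each library and *X. laevis* transcripts hold nearly all of it, so these medians do not show whether the amount of *X. laevis* RNA per embryo was the same. The spread was wider in number 3 (SD 0.52) than in number 1 (SD 0.24). In number 3 alone 856 transcripts were under -1 and 160 over 1, and in number 1 alone 93 and 10. Across transcripts the differences in both numbers were nearly unrelated (Pearson's r = 0.11, Spearman's rho = 0.04, n = 17044, transcripts of the same libraries and not independent).

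limma's moderated test, fitted to all 17526 transcripts of both species that passed the filter with Benjamini-Hochberg adjustment, called 0 *X. laevis* transcripts lower (0%) and 0 higher (0%) at an adjusted p under 0.05 and over 2-fold. The adjusted p of every *X. laevis* transcript rounded to 1.0. Without adjustment, 49 of the 17044 *X. laevis* transcripts had a p under 0.05, a share well under 0.05. Of the 49, 44 were lower and 1 was higher by over 2-fold, and 29 of the 44 are among the 54. Both counts rest on the same 4 libraries, so this overlap is no separate check of the 54. The standard error of a group difference in that fit contained the large spread between numbers. For *not*, for example, the fitted difference was -1.89 with a standard error of 0.45. No single transcript below is therefore a call of that test without a block, and "lower in both numbers" says only what the 4 libraries show.

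**Figure D1:**
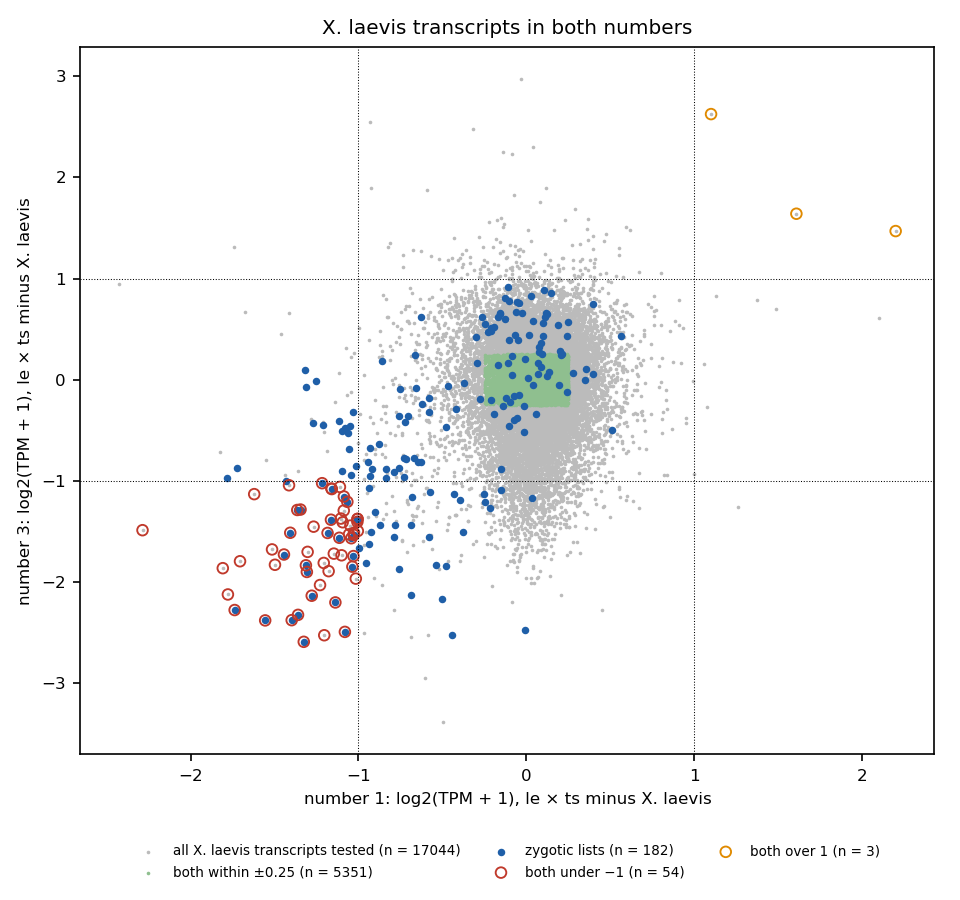
Difference in log2(TPM + 1), le × ts minus *X. laevis*, in number 1 (horizontal) and number 3 (vertical), 1 point per *X. laevis* transcript tested, with dotted lines at -1 and 1. The cloud is wider along the number 3 axis, and the 54 transcripts under -1 in both numbers (red rings) leave it toward the lower left, many of them members of the zygotic gene lists (blue).

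The 54 transcripts that were lower in both numbers held many genes known to be transcribed early in the zygote. They comprise 52 transcripts with a name, under 47 symbols, and 2 without. Of these, 28 belong to the 5 lists of genes that pattern the early embryo (nodal and related ligands, organizer, mesendoderm, ventral and BMP, ectoderm with neural and pluripotency). Those 5 lists held 182 tested transcripts, so that 15.4% of them were lower in both numbers beside 0.317% of all *X. laevis* transcripts. None of the 182 was higher, and 21 were level. The median difference over the 182 was -0.47 in number 1 and -0.40 in number 3, beside 0.05 and -0.02 over all transcripts. The lists were chosen with earlier results of these data known, and their counts are descriptions.

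The 54 were of low to moderate abundance. Their mean TPM over the 4 libraries ran from 1.19 to 48.9 with a median of 7.16, and 0 of the 2684 transcripts at 100 TPM or more were among them. In 44 of the 54 both hybrid libraries lay under both *X. laevis* libraries, a pattern shown by 7.85% of all transcripts tested. In the other 10 the groups overlapped and were separate only within each number. The 54 were chosen on these same 4 libraries, so a share above that of all transcripts was largely built into the rule. The median difference of the 54 was -1.18 in number 1 and -1.57 in number 3, and 45 of the 54 were further below 0 in number 3. *X. laevis* 1 exceeded *X. laevis* 3 in 45 of them (83.3%, beside 54.7% of all transcripts). The library le × ts 1 exceeded le × ts 3 in 51 of the 54, beside 59.2% of all transcripts. Most of the 54 thus stood higher in number 1 in both groups, with exceptions such as *snai1* and *sia2* in *X. laevis*, and the part of this in the wider differences of number 3 was not tested. In 7 of the 54 le × ts 3 was listed at 0. In 34 all 4 libraries were at 1 TPM or more, beside 15454 of all 17044 tested. The filter was passed through the *X. laevis* libraries alone by 5 of the 54. For these last 5 a lower hybrid level was built into the filter.

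**Figure D2:**
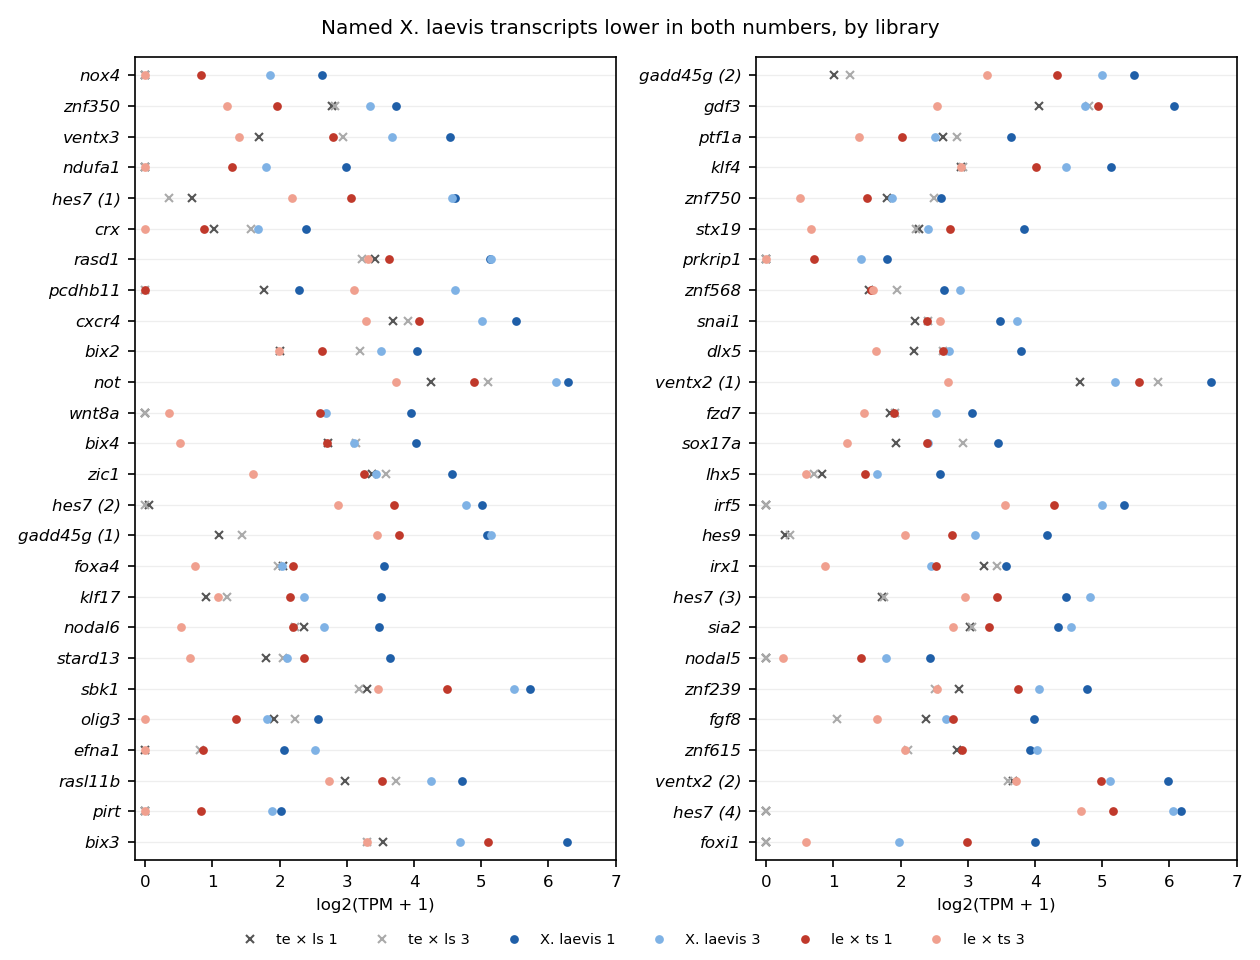
Level in log2(TPM + 1) of the 52 named *X. laevis* transcripts lower in both numbers, ordered by the difference nearer to 0, with a dot for each *X. laevis* (blue) and le × ts (red) library and a cross for each te × ls library (grey). Blue dots lie to the right of red dots of the same number in every row. Several rows, among them *irf5*, *wnt8a*, *foxi1* and a transcript of *hes7*, have te × ls crosses at 0.

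Among organizer genes, 3 of 19 tested transcripts were lower in both numbers, 2 were level and 14 were below 0 in both. Over all transcripts tested these shares were 0.317%, 31.4% and 20.6%. *not* encodes a homeobox factor of the organizer and the notochord. Its transcript TeperekTkacz201202_000158550 measured 77.5 and 68.1 TPM in *X. laevis* 1 and 3, and 28.8 and 12.3 TPM in le × ts 1 and 3. Its differences were -1.40 and -2.38, and the groups did not overlap. The other transcript of *not*, Chang2013_000109931, was the most abundant of the list, with 139 and 121 TPM in *X. laevis* and 92.5 and 107 TPM in le × ts. Its differences were -0.58 and -0.18, so both transcripts of the gene were lower in the hybrid but only the first by over 2-fold. *sia2* encodes Siamois-related homeobox protein, a direct target of maternal Wnt signalling. Of its 4 tested transcripts, all below 0 in both numbers, 1 passed the cutoff. This transcript had 19.4 and 22.1 TPM in *X. laevis* and 8.97 and 5.89 TPM in le × ts (differences -1.03 and -1.74). *foxa4*, a forkhead factor of the organizer and floor plate, had 10.8 and 3.08 TPM in *X. laevis* against 3.58 and 0.672 TPM in le × ts, with differences of -1.36 and -1.29. Here le × ts 1 exceeded *X. laevis* 3, so the groups overlapped and only the comparison within a number separated them. Just outside the cutoff lay transcripts of the Wnt inhibitor *dkk1* (4.12 and 3.25 TPM against 0.894 and 1.13 TPM) and of the BMP inhibitor *nog* (6.22 and 1.91 TPM against 1.1 and 0.486 TPM).

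Among Nodal and related ligands 4 of 21 tested transcripts were lower in both numbers and 1 level, beside 0.317% and 31.4% of all transcripts. These secreted factors induce mesoderm and endoderm. *gdf3*, a TGF-beta family ligand, was the most abundant of the 4, at 66.3 and 25.8 TPM in *X. laevis* and 29.6 and 4.83 TPM in le × ts (differences -1.14 and -2.203), with le × ts 1 above *X. laevis* 3. A transcript of *nodal6* had 10.2 and 5.35 TPM in *X. laevis* and 3.61 and 0.444 TPM in le × ts. A transcript of *nodal5* had 4.41 and 2.43 TPM against 1.65 and 0.185 TPM. Both Nodal transcripts lay lower in each hybrid library than in either *X. laevis* library. *fgf8*, a fibroblast growth factor, had 14.9 and 5.39 TPM in *X. laevis* and 5.84 and 2.14 TPM in le × ts, and there the groups overlapped. The most abundant members of the list, both known as maternal RNAs, stood otherwise. *tdgf1*, an EGF-CFC co-receptor of Nodal, was at 351 and 299 TPM in *X. laevis* and at 321 and 454 TPM in le × ts. *foxh1*, the forkhead partner of Smad2 in Nodal signalling, was at 176 and 167 TPM in *X. laevis* and at 190.0 and 264 TPM in le × ts. For both, the hybrid library of number 3 was the highest of the 4.

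Among mesendoderm genes 6 of 29 tested transcripts were lower in both numbers and 2 were level, beside 0.317% and 31.4% of all transcripts. The list is mostly of transcription factors, and includes the ligand gene *wnt8a*. Transcripts of 3 Bix homeobox genes, which are VegT targets in mesendoderm, were lower together. *bix2* had 15.4 and 10.3 TPM in *X. laevis* against 5.20 and 2.97 TPM in le × ts. *bix4* had 15.4 and 7.63 TPM against 5.55 and 0.432 TPM, with the largest difference of number 3 among the 54 (-2.59). *bix3* had 76.3 and 24.7 TPM against 33.5 and 8.82 TPM, and its groups overlapped, unlike those of *bix2* and *bix4*. *wnt8a*, the zygotic ventrolateral Wnt, had 14.5 and 5.44 TPM in *X. laevis* and 5.04 and 0.284 TPM in le × ts (-1.36 and -2.33). A transcript of the endoderm factor *sox17a*, 1 of 3 tested, was also lower in both numbers (9.94 and 4.30 TPM against 4.23 and 1.29 TPM). So was 1 of 2 tested transcripts of the zinc finger factor *snai1* (10.2 and 12.3 TPM against 4.26 and 4.98 TPM). Summed over its transcripts, *snai1* had 64.7 and 118 TPM in *X. laevis* and 56.6 and 185 TPM in le × ts, so the sum was higher in number 3. *vegt*, the maternal inducer of this programme, did not share the pattern. Its transcripts stood at 398 and 433 TPM and at 424 and 381 TPM in *X. laevis*, and at 426 and 587 TPM and 419 and 319 TPM in le × ts.

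Among ventral and BMP genes 3 of 28 tested transcripts were lower in both numbers and 4 level, beside 0.317% and 31.4% of all transcripts. All 3 belong to the Vent homeobox family, which acts downstream of BMP on the ventral side. *ventx3* had 22.1 and 11.8 TPM in *X. laevis* and 5.94 and 1.64 TPM in le × ts (-1.74 and -2.28), the largest difference of the patterning genes when ranked by the number nearer to 0. Of 5 tested transcripts of *ventx2*, all below 0 in both numbers, 2 passed the cutoff. They had 97.5 and 35.6 TPM against 45.6 and 5.50 TPM, and 62.3 and 33.7 TPM against 30.5 and 12.1 TPM. The groups did not overlap for *ventx3* and for the second *ventx2* transcript, and overlapped for the first. The most abundant members of the list were transcripts of *id2*, a helix-loop-helix inhibitor, at 667 and 774 TPM and 532 and 473 TPM in *X. laevis* and at 597 and 1227 TPM and 434 and 530.5 TPM in le × ts. These were below 0 in number 1 and above 0 in number 3.

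Ectoderm, neural and pluripotency genes made the longest patterning list, with 85 tested transcripts. Of the 85, 12 were lower in both numbers, 12 were level and 56 were below 0 in both. Over all transcripts tested these shares were 0.317%, 31.4% and 20.6%. *hes7*, a basic helix-loop-helix repressor of the Hairy and Enhancer of split family, gave 4 of the 12. The transcript Ueno201302st08_000647839 had 23.5 and 22.7 TPM in *X. laevis* and 7.35 and 3.55 TPM in le × ts. Taira201203st09_000148844 had 31.3 and 26.4 TPM against 12 and 6.34 TPM. Ueno201210st09_000232217 had 21.1 and 27.1 TPM against 9.79 and 6.81 TPM. The 4th, TeperekTkacz201205_000638857, was just inside the cutoff with 70.7 and 65.5 TPM against 34.7 and 24.6 TPM. In all 4 the *X. laevis* libraries were close to each other and both hybrid libraries were well under them, and no other symbol had as many transcripts lower in both numbers. A related transcript of *hes4* lay just outside the cutoff, at 89.8 and 90.4 TPM in *X. laevis* and 44.5 and 27.8 TPM in le × ts (-0.996 and -1.67).

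The other members of that list were chemokine, neural and pluripotency genes. *cxcr4*, the receptor of the chemokine Cxcl12, had 44.8 and 31.2 TPM in *X. laevis* and 15.8 and 8.70 TPM in le × ts (-1.44 and -1.73). *zic1*, a zinc finger factor of the neural plate, had 22.7 and 9.81 TPM against 8.56 and 2.03 TPM. The homeobox genes *irx1* (10.9 and 4.45 TPM against 4.77 and 0.839 TPM) and *dlx5* (12.8 and 5.60 TPM against 5.18 and 2.12 TPM) act in neural and border ectoderm. Transcripts of the Krüppel-like factors *klf4* (34.1 and 21.0 TPM against 15.2 and 6.44 TPM) and *klf17* (10.3 and 4.14 TPM against 3.46 and 1.11 TPM) were also lower in both numbers. Summed over its transcripts, *klf4* had 63.4 and 54.6 TPM against 47.5 and 42.0 TPM. The sums of *klf17* were 58.8 and 20.2 TPM against 34.1 and 9.82 TPM. By these sums neither gene passed the cutoff. A transcript of *rasl11b*, a small GTPase, had 25.1 and 18.1 TPM against 10.5 and 5.68 TPM. *foxi1*, a forkhead activator of ectoderm, was just inside the cutoff at 14.9 and 2.91 TPM against 6.94 and 0.507 TPM. For *foxi1* and *irx1* le × ts 1 exceeded *X. laevis* 3, so their groups overlapped. The most abundant members of the list stood otherwise. *ddit4*, a stress-induced inhibitor of mTOR signalling, was at 1280.3 and 1012 TPM in *X. laevis* and 1140.4 and 1558 TPM in le × ts, and *gmnn*, which encodes the replication inhibitor geminin, was at 1264 and 1298 TPM against 1136 and 609 TPM, with a difference under -1 in number 3 only.

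A further 24 named transcripts lower in both numbers lay outside the patterning lists. *rasd1*, a Ras-related GTPase, had the smallest unadjusted p of the named transcripts, with 34.0 and 34.4 TPM in *X. laevis* and 11.4 and 8.96 TPM in le × ts (limma's fitted difference -1.66, standard error 0.29, adjusted p = 1.0). Both transcripts of *gadd45g*, a growth arrest gene that is also active in early neural ectoderm, were lower. They had 32.8 and 34.4 TPM against 12.7 and 9.89 TPM, and 43.4 and 31.0 TPM against 19.1 and 8.71 TPM. They were the only members lower in both numbers of a stress response list of 44 (4.55%, beside 0.317% of all transcripts). In that list 16 were level (36.4%, beside 31.4% of all transcripts). A transcript of the kinase gene *sbk1* had 51.8 and 44.0 TPM against 21.5 and 10.02 TPM. A transcript of *irf5*, an interferon regulatory factor gene, had 39.2 and 31.0 TPM against 18.4 and 10.8 TPM. For these transcripts the groups were separate in every case.

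There were 5 further zinc finger genes among them, *znf350* (a transcript at 12.3 and 9.16 TPM against 2.89 and 1.33 TPM, differences -1.78 and -2.12), *znf239*, *znf568*, *znf615* and *znf750*. Neural and sensory transcription factors were *crx* (4.26 and 2.2 TPM against 0.842 and 0 TPM), *olig3*, *ptf1a* and *lhx5*, and *hes9* belongs to the same family as *hes7*. Signalling and membrane genes were the ephrin *efna1*, the Wnt receptor *fzd7*, *stard13*, *stx19* and *pirt*. The rest were *nox4*, *pcdhb11*, *prkrip1* and *ndufa1*. *nox4*, an NADPH oxidase gene, had the largest difference nearer to 0 (-1.81 and -1.86) but a low level, at 5.20 and 2.64 TPM in *X. laevis* and 0.770 and 0 TPM in le × ts. *ndufa1*, a subunit of respiratory complex I, had 6.95 and 2.47 TPM against 1.44 and 0 TPM. It was the only lower transcript of 136 in the respiratory chain list (0.735%, beside 0.317% of all transcripts). *pcdhb11*, a protocadherin gene, was far higher in number 3 than in number 1 of both groups, with 3.88 and 23.3 TPM against 0 and 7.66 TPM. Its groups overlapped, as did those of the *stard13* and *stx19* transcripts. Of the 54, 18 had a mean under 5 TPM, where a few reads can decide a value, beside 3194 of the 17044 transcripts tested.

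The lists of the maternal programme and of basic cell functions gave few transcripts past the cutoffs. Of the germ plasm (49 tested), egg and oocyte (58), cleavage cycle (69), ribosomal protein (188) and proteasome (68) transcripts, 0 were lower and 0 higher in both numbers, beside 0.317% and 0.0176% of all transcripts, shares at which few or none would be counted in lists of this size. The median differences were 0.06 and -0.10 for germ plasm, -0.05 and 0.27 for egg and oocyte genes, -0.05 and 0.04 for the cleavage cycle, and -0.04 and -0.16 for the proteasome. Ribosomal protein transcripts had medians of -0.20 in number 1 and 0.16 in number 3, opposite in sign. The share level in both numbers was 22.4% for germ plasm, 24.1% for egg and oocyte genes, 30.4% for the cleavage cycle, 19.7% for ribosomal proteins and 35.3% for the proteasome, beside 31.4% of all transcripts. The most abundant members varied. *plin2*, a lipid droplet protein gene in the germ plasm list, stood at 1451 and 1299 TPM in *X. laevis* and at 1322 and 1535 TPM in le × ts. *ccnb1*, the mitotic cyclin B1, stood at 2005 and 2188 TPM against 1857 and 1444 TPM. *btg4*, which in the mouse acts in the removal of maternal mRNA, stood at 749 and 1552 TPM against 743 and 1865 TPM, so that it differed more between numbers than between groups. *zfp36l2*, a zinc finger gene and the most abundant of the egg and oocyte list, stood at 837 and 1273 TPM against 739 and 2162 TPM, higher in le × ts in number 3 alone. The respiratory chain list had medians of -0.11 and 0.13, the stress response list -0.06 and 0.03, the 9 testis and sperm markers 0.04 and -0.21, and the 5 later tissue markers -0.19 and -1.15, with 0 of these markers lower in both numbers.

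**Figure D3:**
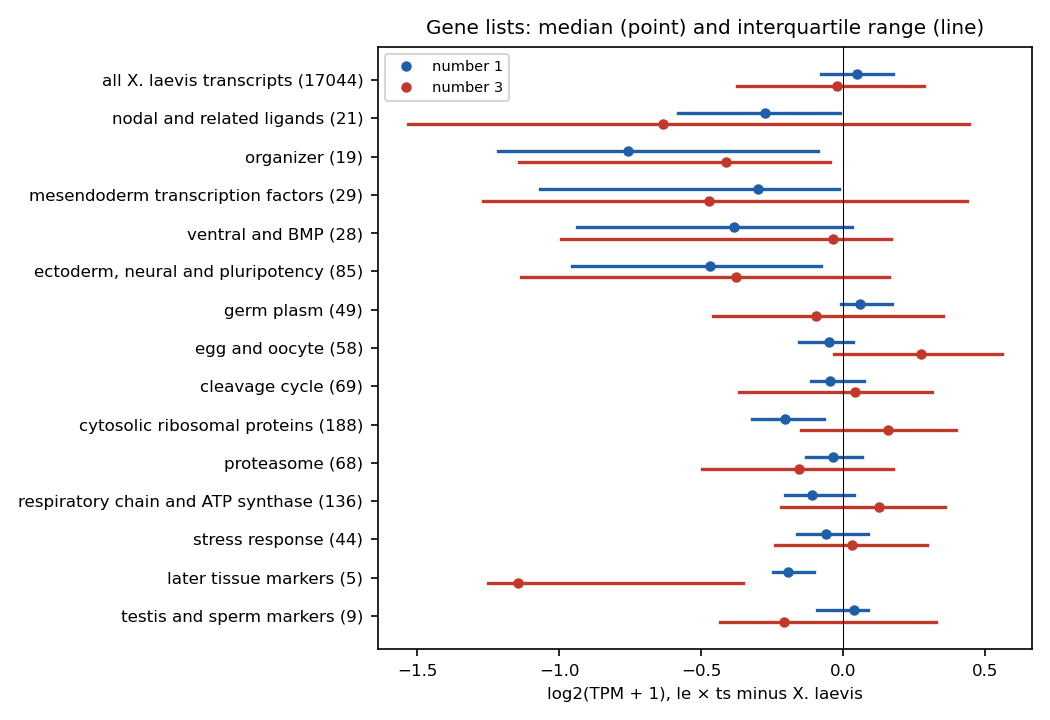
Median (point) and interquartile range (line) of the difference in log2(TPM + 1), le × ts minus *X. laevis*, for all *X. laevis* transcripts and each of 14 gene lists, with the number of transcripts tested in brackets, number 1 in blue and number 3 in red. The 5 patterning lists have medians below 0 in both numbers, from -0.27 to -0.76 in number 1 and from -0.04 (ventral and BMP) to -0.63 in number 3. The other lists lie between -0.20 and 0.06 in number 1, and in number 3 several of them are further from 0 than ventral and BMP.

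The most abundant named transcripts that were level in both numbers were those of *gp1bb*, *mt-atp6*, *rrm2b*, *plin2* and *mkrn3*. *gp1bb* was the highest, at 5136 and 6441 TPM in *X. laevis* and at 5001 and 7286 TPM in le × ts. The mitochondrial ATP synthase subunit *mt-atp6* stood at 2260 and 6383 TPM against 2231 and 7016 TPM, so the numbers differed by far more than the groups. The ribonucleotide reductase gene *rrm2b* stood at 1938 and 1245 TPM against 1830.4 and 1465 TPM. The ring finger gene *mkrn3* stood at 1255 and 1256 TPM against 1168 and 1144 TPM, close in all 4 libraries.

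Only 3 transcripts were higher in both numbers. *fam159b* had 0 and 1.82 TPM in *X. laevis* and 2.05 and 7.79 TPM in le × ts. *march11*, which encodes a membrane-bound ubiquitin ligase, had 0.768 and 0 TPM in *X. laevis* and 2.79 and 5.17 TPM in le × ts. The third has no name and had 0 and 6.33 TPM against 3.59 and 19.3 TPM. All 3 were low in *X. laevis*, and *march11* passed the filter through the hybrid libraries alone, so that a higher hybrid level was built in. In te × ls both named transcripts were at 0 in both libraries.

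The reciprocal hybrid gave a view of the same genes that shares no library with the comparison. In te × ls embryos the egg is of *X. tropicalis*, and *X. laevis* RNA can come only from the sperm genome apart from misassigned reads. *X. laevis* transcripts held 0.355% and 0.429% of all TPM in te × ls 1 and 3, beside 0.124% and 0.230% in *X. tropicalis* 1 and 3. With 1 TPM or more in both te × ls libraries and under 1 TPM in both *X. tropicalis* libraries, 399 *X. laevis* transcripts were detected, of which 375 (2.2% of the 17044) were tested in the comparison and 24 were too low in it. Of the 375, 37 (9.87%) were lower in both numbers in le × ts, beside 0.317% of all transcripts, and 0 were higher. Both differences were below 0 in 184 (49.1%), beside 20.6% of all, and 80 (21.3%) were level, beside 31.4%. The median difference of the 375 was -0.17 in number 1 and -0.09 in number 3.

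In number 1 the median difference fell as the level in te × ls rose. In number 3 only the transcripts highest in te × ls stood apart. Among transcripts under 1 TPM in *X. tropicalis*, those under 0.1 TPM in te × ls on average (13598) had median differences of 0.07 in number 1 and -0.03 in number 3. Those from 0.1 to 1 TPM (2819) had medians of -0.01 and 0.02, and those from 1 to 5 TPM (388) had -0.11 and -0.04. At 5 TPM or more (88) the medians were -0.55 and -0.68. The share lower in both numbers went from 0.0735% and 0.142% through 5.67% to 20.5% over the same bands. Within number 1, nearly the whole of the highest band lay below 0, and in number 3 the band spread from well below -1 to above 0.

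**Figure D4:**
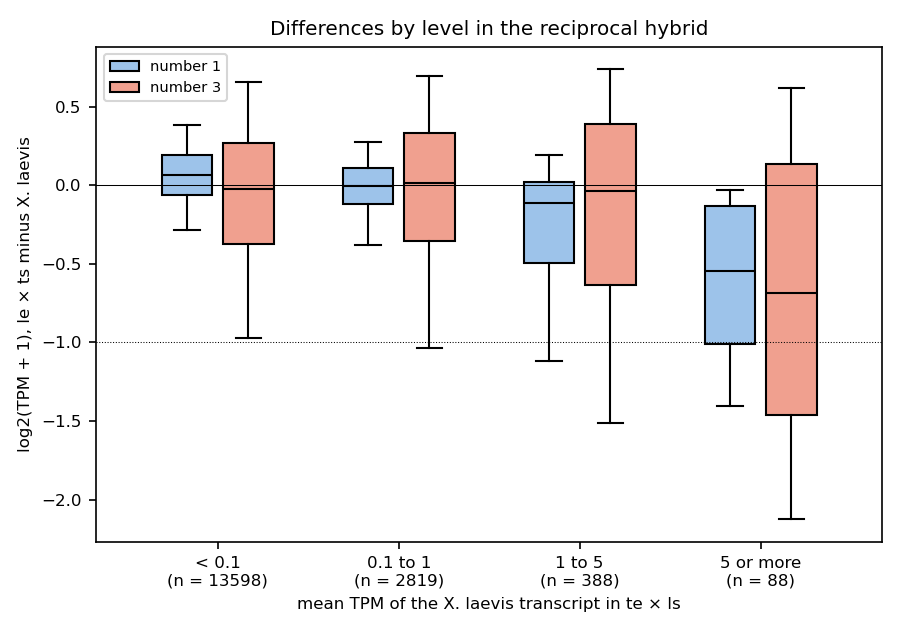
Difference in log2(TPM + 1), le × ts minus *X. laevis*, of *X. laevis* transcripts grouped by their mean TPM in te × ls (boxes: quartiles and median, whiskers: 5th to 95th percentile, number 1 in blue and number 3 in red, dotted line at -1). The medians lie near 0 in the lowest bands and at -0.55 and -0.68 for the 88 transcripts at 5 TPM or more.

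Abundance over the 4 libraries, hybrids included, split the 375 further. Below a mean of 10 TPM (109 transcripts) the median differences in numbers 1 and 3 were -0.76 and -0.81, and 20 were lower in both numbers. From 10 to 50 TPM (90) they were -0.29 and -0.16 with 17 lower. From 50 to 200 TPM (93) they were -0.05 and 0.14, and at 200 TPM or more (83) -0.08 and 0.10. In both of these bands the signs were opposite between numbers and 0 were lower. Over all transcripts tested, 0.564% were lower below 5 TPM and 0.564% from 5 to 20 TPM. From 20 to 100 TPM 0.174% were lower, and at 100 TPM or more 0 of 2684. The 0 at 200 TPM or more was thus not particular to transcripts detected in te × ls. The transcripts highest in te × ls include some lower in both numbers and some not. *ventx2* (24.5 and 56.0 TPM in te × ls 1 and 3), *not* (18.1 and 33.4 TPM) and *gdf3* (15.6 and 26.9 TPM) were lower in both numbers in le × ts, as given above. *sox3*, a SoxB1 factor of the ectoderm with a large maternal store, reached 23.9 and 43.4 TPM in te × ls, and stood at 655 and 713 TPM in *X. laevis* and 634 and 1204 TPM in le × ts. A second *sox3* transcript, at 13.7 and 25.5 TPM in te × ls, was level, with 341 and 354 TPM against 323 and 317 TPM. The pluripotency factor *pou5f3* reached 26.5 and 32.8 TPM in te × ls and stood at 212 and 274 TPM in *X. laevis* and 153 and 261 TPM in le × ts. The splicing factor gene *srsf5* reached 16.8 and 41.6 TPM in te × ls and stood at 1295 and 1311 TPM against 1134 and 714 TPM.

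Read from the other side, 37 of the 54 transcripts lower in both numbers (68.5%) were detected in te × ls, beside 2.2% of all tested. Another 14 were under 1 TPM in both te × ls libraries, 9 of them at 0 in both. Such a level was the common state, as the bands above show (13598 and 2819 transcripts averaging under 1 TPM, 388 and 88 above). The 14 were *hes7* (3 transcripts), *wnt8a*, *nodal5*, *foxi1*, *hes9*, *lhx5*, *efna1*, *irf5*, *nox4*, *pirt*, *prkrip1* and *ndufa1*. The *hes7* transcript at 70.7 and 65.5 TPM in *X. laevis* was at 0 in te × ls 1 and 3, whereas another *hes7* transcript, at 21.1 and 27.1 TPM in *X. laevis*, had 2.31 and 2.36 TPM. The lower transcripts of *irf5* and *wnt8a* were also at 0 in both te × ls libraries, with 39.2 and 14.5 TPM in *X. laevis* 1. For these single transcripts a lower level in le × ts stood beside little or no RNA of the transcript in te × ls. Summed over all *X. laevis* transcripts of a symbol, te × ls 1 and 3 had 3.7 and 2.6 TPM for *hes7*. The sums were 0.466 and 0.274 TPM for *wnt8a*, and 0.082 and 0 TPM for *irf5*. Alleles of the sperm donor that differ from the database would also be counted at 0, and their part in this was not tested.

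Several symbols had transcripts that behaved unlike each other. Of the 47 symbols, 34 had at least 2 tested *X. laevis* transcripts, and in 3 of these (*gadd45g*, *hes7* and *ventx2*) a second transcript was lower in both numbers. In 22 of the 34 every transcript was below 0 in both numbers, and in 8 at least 1 transcript was level. The choice of symbols set at least 1 transcript of each below 0, and the same counts over all symbols were not made. Counted per transcript and not per symbol, 20.6% of all tested were below 0 in both numbers and 31.4% level. *klf4* had 1 lower transcript, given above, and 2 level ones, at 28.9 and 31.4 TPM against 31.8 and 33.1 TPM and at 0.354 and 2.19 TPM against 0.361 and 2.22 TPM. For *snai1* the second transcript, at 54.5 and 106 TPM in *X. laevis* and 52.3 and 180 TPM in le × ts, was not lower in number 3. The sum over all transcripts of *fzd7* was 70.4 and 85.6 TPM in *X. laevis* and 73.3 and 127 TPM in le × ts, although its transcript MK201406_0113737 was lower (7.38 and 4.76 TPM against 2.75 and 1.73 TPM). *irf5* had 7 tested transcripts, 4 of them level. The sum over all its transcripts, tested or not, was 332 and 307 TPM in *X. laevis* and 318 and 269 TPM in le × ts. The 25 tested transcripts of *znf350*, 8 of them level, are part of sums of 211 and 195 TPM against 204 and 204 TPM. *prkrip1* had 3 tested transcripts, and the sum over all its transcripts was 131 and 96.5 TPM against 113 and 68.5 TPM. The transcripts lower in both numbers were therefore not always the bulk of the RNA of their gene.

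In the hybrid the paternal genome brings its own copies of these genes. An *X. tropicalis* transcript of the same symbol was present in the table for 39 of the 47 symbols. In 20 of these 39 (51.3%) its summed TPM was 1 or more in both le × ts libraries and under 1 in both *X. laevis* libraries, beside 124 of the 9207 tested symbols that have an *X. tropicalis* transcript (1.35%). For the 20 symbols the *X. laevis* sum had a median difference of -1.09 in number 1 and -1.24 in number 3. The sum over both species had -0.08 and -0.63. The 20 were chosen for a lower *X. laevis* transcript and for *X. tropicalis* RNA in the hybrid. A total difference above that of the *X. laevis* sum was therefore built into the choice, and only its size was open. *X. tropicalis* RNA made up a median of 43.3% of the summed TPM in le × ts 1 and 41.3% in le × ts 3. The sum over both species was under that of *X. laevis* embryos in both numbers for 15 symbols and over it in both for 4. The 4 were *klf17*, *fzd7*, *snai1* and *znf350*. Of these, only *klf17* had an *X. laevis* sum with differences below 0 in both numbers (-0.77 and -0.97). The *X. laevis* sums of *fzd7* (0.06 and 0.56), *snai1* (-0.19 and 0.65) and *znf350* (-0.05 and 0.06) did not.

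The balance varied between genes. For *sia2* the *X. laevis* sum was 34.6 and 36.8 TPM in *X. laevis* embryos and 17.7 and 15.5 TPM in le × ts, where *X. tropicalis* transcripts added 16.1 and 20.7 TPM, which left differences of -0.04 and -0.02 for both species together. For *hes7* the sums were 150.4 and 145 TPM against 66.9 and 42.3 TPM, with 75.7 and 46.8 TPM of *X. tropicalis* RNA and total differences of -0.08 and -0.70. For *klf17* the *X. tropicalis* part was the larger, at 83.7 and 33.6 TPM beside 34.1 and 9.82 TPM of *X. laevis* RNA, and the total stood above *X. laevis* embryos (0.99 and 1.06). For *gadd45g* it was small, at 1.83 and 1.58 TPM beside 31.8 and 18.6 TPM, and the total stood below (-1.16 and -1.65). In *X. tropicalis* 1 and 3 the *X. tropicalis* sum of *gadd45g* was also low, at 2.16 and 2.43 TPM. There it was 26.9 and 36.7 TPM for *sia2*, 510 and 597 TPM for *hes7* and 149 and 265 TPM for *klf17*. TPM of different transcripts are comparable per length, but perfect matching can lose unequal shares of reads in each species, and the part of this in the balance was not tested.

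**Figure D5:**
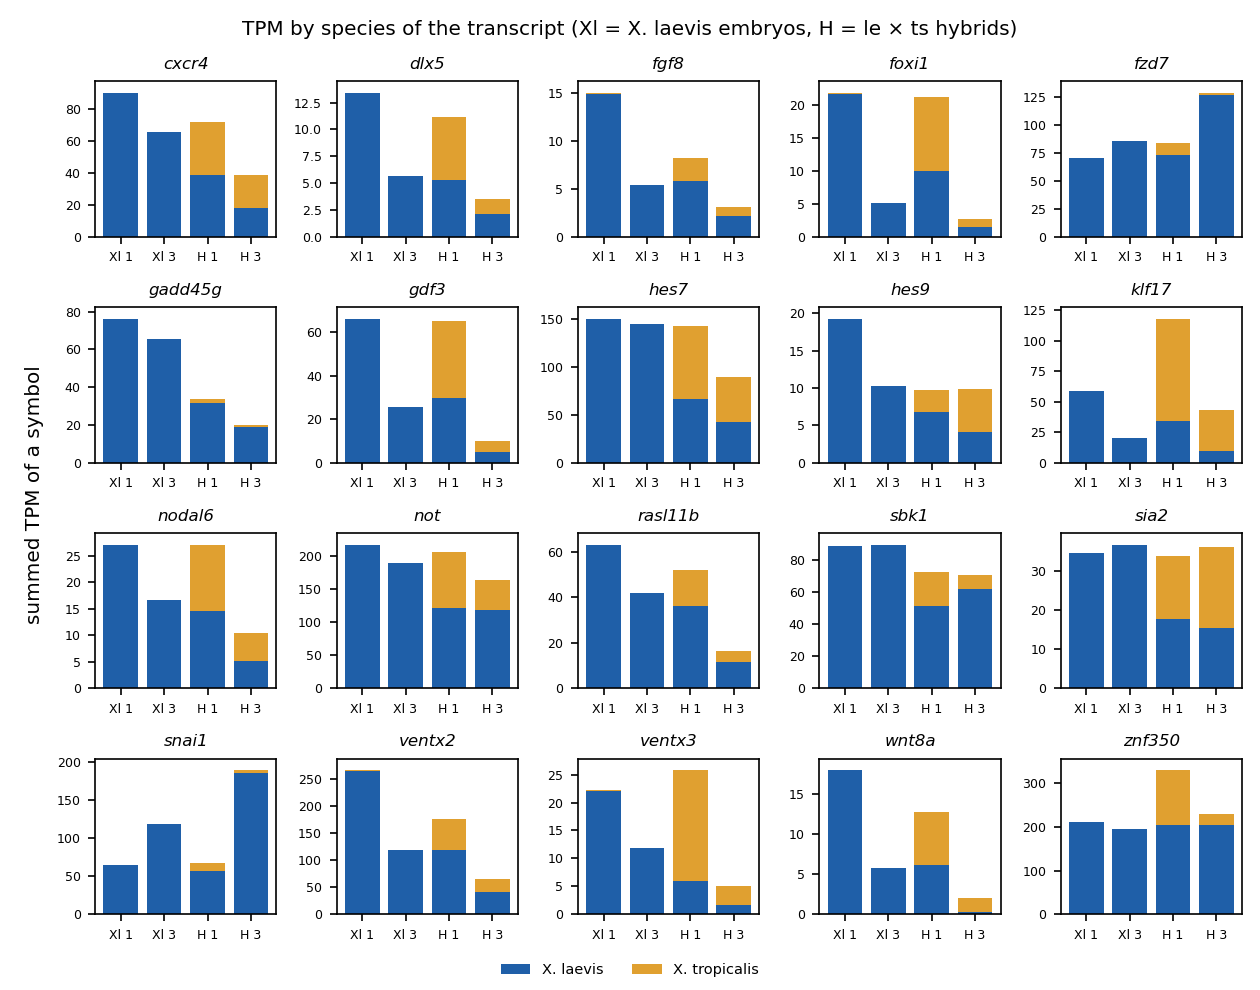
Summed TPM by species of the transcript (blue *X. laevis*, orange *X. tropicalis*) for the 20 symbols with a transcript lower in both numbers and *X. tropicalis* RNA in both hybrid libraries, in *X. laevis* 1 and 3 (Xl) and le × ts 1 and 3 (H), each panel on its own axis from 0. For *sia2* the stacked hybrid bars come close to the *X. laevis* bars, for *klf17* they exceed the *X. laevis* bar of the same number, and for *gadd45g* they stay well under it.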

How the data were processed

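RNA-seq reads of stage 9 whole embryos were mapped by the authors with Bowtie against transcripts of both species at once, with perfect and unique matches only, and the authors deposited TPM from RSEM, 1 value per transcript and library. The submitters' processing notes name BWA 0.7.10 in place of Bowtie. Read totals are not kept in TPM. Relative reads were taken from the commonest ratio of values from 0.03 to 0.3 TPM. No reference genome was used, so neither positions nor sequences are given.

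Groups and numbers came from the labels (n = 2). The series text speaks of more replicates than these. Whether libraries came from separate clutches is not stated, so p-values measure only the spread between these libraries. Values were log2(TPM + 1). Tests used limma 3.58.1 in R 4.3.3 with a mean trend and no block, because counts for the edgeR test of the authors cannot be had from TPM. The fit was first run on simulated data with changes larger than those described here. That check cannot show whether changes of the size seen here would be called. The named transcripts were the 12 largest lower in both numbers, up to 8 higher, all of *not*, from each list the 2 most abundant and up to 3 lower or higher, 5 abundant level ones, 3 on each side of the cutoff and 8 highest in te × ls. The remaining members lower in both numbers, and second transcripts of *klf4*, *snai1* and *fzd7*, were added after their values were seen. A transcript that the rule names is not reported here. Members and lists were chosen with earlier results of these data known. Alternatives were other pseudocounts, filters and scalings, a replicate block, other detection levels, another rule for lower and left-out replicates.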

Additional observations from a re-analysis of the deposited data

How the results depend on the processing

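The counts rest on 2 libraries per group, of which le × ts 3 was the shallowest, and on a scale that depends on the pseudocount at low TPM. With the replicate number as a block, limma called 25 *X. laevis* transcripts lower and 2 higher, all 25 among the 54 and both among the 3. The fit with a block rests on the same differences within a number, so this overlap is no separate check. Libraries of the same number deviated together (r = 0.78 across transcripts), but the labels do not say that a number marks a shared clutch. Every other setting of the test on all 4 libraries called 0 and 0, with smallest adjusted p from 0.738 to 1.0. None of these settings had a block, so their error kept the spread between numbers. They are no check of the fit with a block. The count lower in both numbers was 108 with a pseudocount of 0.1, including all 54, and 95 when group means differed by over 1 without overlap, 44 of them shared. The count higher was 5 and 14 with pseudocounts of 0.5 and 0.1, 1 with a filter at 5 TPM and 6 by group means without overlap. With a single number left, from 93 to 856 transcripts were lower, from 10 to 160 higher and from 6826 to 13236 level. The median of the te × ls transcripts was -0.15 over both numbers, from -0.17 to -0.093 with a single number, -0.43 with detection at 5 TPM (67 transcripts) and -0.093 at 0.5 TPM (607). Among the settings that kept both numbers, signs changed in 3 of 70 list medians and 3 of 439 named values. All were close to 0 or rested on few transcripts, and some became exactly 0. Single numbers are not in these counts. Between numbers, several list medians and named values were opposite in sign, such as the median of ribosomal proteins (-0.20 and 0.16). The cause of these shifts was not tested.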

Other observations

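Some abundant transcripts stood lower or higher in number 3 and near 0 in number 1. *gmnn* had differences of -0.15 in number 1 and -1.09 in number 3, *srsf5* -0.19 and -0.88, and the keratin gene *krt5* -0.10 and -1.15 (359 and 360 TPM in *X. laevis*, 334 and 162 TPM in le × ts). In the other direction stood *sox3* (-0.05 and 0.76), *zfp36l2* (-0.18 and 0.76) and *id2* (-0.16 and 0.66). With a single hybrid library showing each of these differences, they have no replicate check.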
